A study of Homo sapiens with 14 samples.

Results

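The laminin chain genes LAMA3, LAMA4, LAMA5, LAMB1, LAMB2, LAMB3 and LAMC1 were followed through total mRNA and polysome pools of MDA-MB-231 cells, a triple-negative human breast cancer line, with or without silencing of DAP5. The members were taken by name, and these 7 are among the 58434 gene symbols of the count table. All 7 passed the filter on low counts in every comparison, so none was too low to judge.

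Laminins are secreted glycoproteins of the basement membrane, each built from 1 alpha, 1 beta and 1 gamma chain that are joined in the endoplasmic reticulum before secretion. The short arms link laminins into a network, and the end of the alpha chain binds integrins and dystroglycan on the cell surface. Breast epithelium rests on such a basement membrane, and carcinoma cells both make laminin and move on it. DAP5, encoded by EIF4G2, is a relative of the scaffold protein eIF4G that can recruit ribosomes to mRNA without binding eIF4E.

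Both groups were stable MDA-MB-231 lines carrying an inducible pTRIPZ lentiviral vector, selected with puromycin and sorted on the red fluorescent reporter. One line, shNSi, carried a non-silencing shRNA, and the other, shDAP5, an shRNA against DAP5. All cultures, controls included, received 1 µg/ml doxycycline for 6 days. Each line gave 2 cultures (n = 2), sampled as total mRNA, light polysomes (poorly translated mRNA) and heavy polysomes (well-translated mRNA), and the shNSi cultures also gave a moderate pool, for 14 libraries of 25899838 to 30795910 counts. The shDAP5 light libraries carry in their descriptions the code that marks the moderate pool in shNSi, and the shDAP5 total libraries are titled total polysome, so the match of these pools between the lines rests on the titles. Heavy replicate 2 of shNSi stood apart from heavy replicate 1 for these genes, and values without it are given after the chains' calls between the lines. The 5 markers of MDA-MB-231 cells fixed for the check (VIM, CD44, FN1, AXL and ZEB1) were all above 1 CPM (reads scaled to library size) in total mRNA, whereas 4 of 7 luminal epithelial, 3 of 5 fibroblast and 2 of 2 endothelial markers lay under 1 CPM. The sum of the 5 MDA-MB-231 markers was 6611.5 to 7013.3 CPM in shNSi and 4689 to 5165.6 CPM in shDAP5, a difference that was not tested.

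The shRNA target was lower in the silenced line. EIF4G2 total mRNA stood at 1485 and 1429.8 CPM in the 2 shNSi cultures and at 572 and 782 CPM in the 2 shDAP5 cultures. Its total mRNA fell by 1.11 on the log2 scale (SE 0.18, adjusted p = 0.0172, edgeR quasi-likelihood test). The libraries are bulk, so fewer cells holding an mRNA and less of it per cell cannot be told apart. CPM values here are scaled by TMM, which corrects for differences in library composition, within each fraction.

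The sequences before the start site are shown for the chain whose total mRNA rose, LAMA5, and for LAMA3 and LAMB3, the partners that form the epithelial anchoring laminin. Each is the 250 bases before a RefSeq start on GRCh38.p14, read 5′ to 3′ on the gene's strand, and all 7 chains had such a window. For LAMA5 (chr20:62367313-62367562, minus strand) capitals mark GGGCGG, the GC box, and CCGGAAG, an ETS motif, on either strand. For LAMA3 (chr18:23872770-23873019, plus strand) and for LAMB3 (chr1:209651375-209651624, minus strand, the window of 1 of its 3 listed starts) capitals mark the AP-1 motif TGACTCA on either strand. The LAMA3 window lies inside the gene model, which begins at 23689443, so it precedes an internal start.
LAMA5: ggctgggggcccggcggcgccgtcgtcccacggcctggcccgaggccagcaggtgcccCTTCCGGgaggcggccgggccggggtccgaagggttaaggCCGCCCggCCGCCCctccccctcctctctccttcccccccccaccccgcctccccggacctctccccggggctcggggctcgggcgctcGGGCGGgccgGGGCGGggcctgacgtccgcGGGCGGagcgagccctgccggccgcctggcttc
LAMA3: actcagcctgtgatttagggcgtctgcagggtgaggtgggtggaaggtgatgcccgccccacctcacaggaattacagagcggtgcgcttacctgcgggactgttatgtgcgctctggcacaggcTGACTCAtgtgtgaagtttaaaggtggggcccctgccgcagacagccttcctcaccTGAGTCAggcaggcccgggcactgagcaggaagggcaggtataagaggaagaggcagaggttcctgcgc
LAMB3: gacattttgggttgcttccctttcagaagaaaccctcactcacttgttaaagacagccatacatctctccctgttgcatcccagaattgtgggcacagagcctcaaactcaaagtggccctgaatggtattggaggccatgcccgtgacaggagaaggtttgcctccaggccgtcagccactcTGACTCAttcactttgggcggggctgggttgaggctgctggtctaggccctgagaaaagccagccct
The LAMA5 window held 5 GC boxes and 1 ETS motif and was 82.8% G and C, against a median of 58% over all 35116 windows. Of the chains whose total mRNA was not called, LAMC1 had 3 GC boxes and 79.6% G and C and LAMB1 4 GC boxes and 70.4%, whereas LAMB2 and LAMA4 had 1 and 0 GC boxes. The LAMA3 window held 2 AP-1 motifs and the LAMB3 window shown held 1, at 60.4% and 54% G and C, and the other 2 LAMB3 windows held 0. Over all windows, 4.20% held TGACTCA, 8.52% CCGGAAG and 42.6% GGGCGG, both strands searched. A match describes the letters of the window only.

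The 7 genes differ widely in length, as annotated in GENCODE v29 on GRCh38. The longest coding sequence was 11085 nucleotides for LAMA5 (chr20:62307955-62367312, minus strand, 80 coding exons) and 9999 for LAMA3 (chr18:23689443-23956222, plus strand, 75 coding exons). The LAMA3 window shown above belongs to a start inside this model, and which LAMA3 form the cells express was not tested. Its length, level per kilobase and place against the length trend below are those of the annotated model. It was 5469 for LAMA4 (chr6:112108760-112254939, minus strand), 5430 for LAMB1 (chr7:107923799-108003255, minus strand) and 5394 for LAMB2 (chr3:49121114-49133118, minus strand). LAMC1 (chr1:183023460-183145592, plus strand) had 4827 and LAMB3 (chr1:209614870-209652466, minus strand) 3516. The antisense gene LAMA5-AS1, which lies against LAMA5, had 0 to 2 counts per library.

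LAMB3 and LAMC1 were the most abundant chains of the control cells per unit of length. In total mRNA of shNSi the level per kilobase of exon was 68.8 ± 36.7 CPM (SD, n = 2) for LAMB3, the beta chain of the epithelial anchoring laminin, and 25.7 ± 2.29 for LAMC1, the gamma chain shared by most laminins. LAMB2, the beta chain known from the kidney filter and the neuromuscular junction, followed at 18.8 ± 1.52. LAMA5, the main alpha chain of adult epithelia, stood at 5.47 ± 1.62 and LAMB1, the common beta chain, at 5.32 ± 0.133, which did not differ beyond their spread. LAMA3, the alpha chain of the anchoring laminin, stood at 2.56 ± 0.549 and LAMA4, an alpha chain known from vessel walls and muscle, at 1.85 ± 0.377, with SDs that overlap. In shDAP5 the order by mean was LAMB3 (31.2 ± 1.70 CPM per kilobase), LAMC1 (20.6 ± 3.74), LAMA5 (15.5 ± 4.14), LAMB2 (15.4 ± 0.0851), LAMB1 (5.07 ± 0.136), LAMA3 (3.65 ± 0.210) and LAMA4 (2.34 ± 0.0208). The LAMA5 cultures there, at 18.4 and 12.6, overlapped those of LAMC1 (17.9 and 23.2) and lay on both sides of LAMB2, so its rank was not settled. LAMA5 stood beside LAMB1 in the control cells and beside LAMB2 in the silenced cells.

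**Figure D1:**
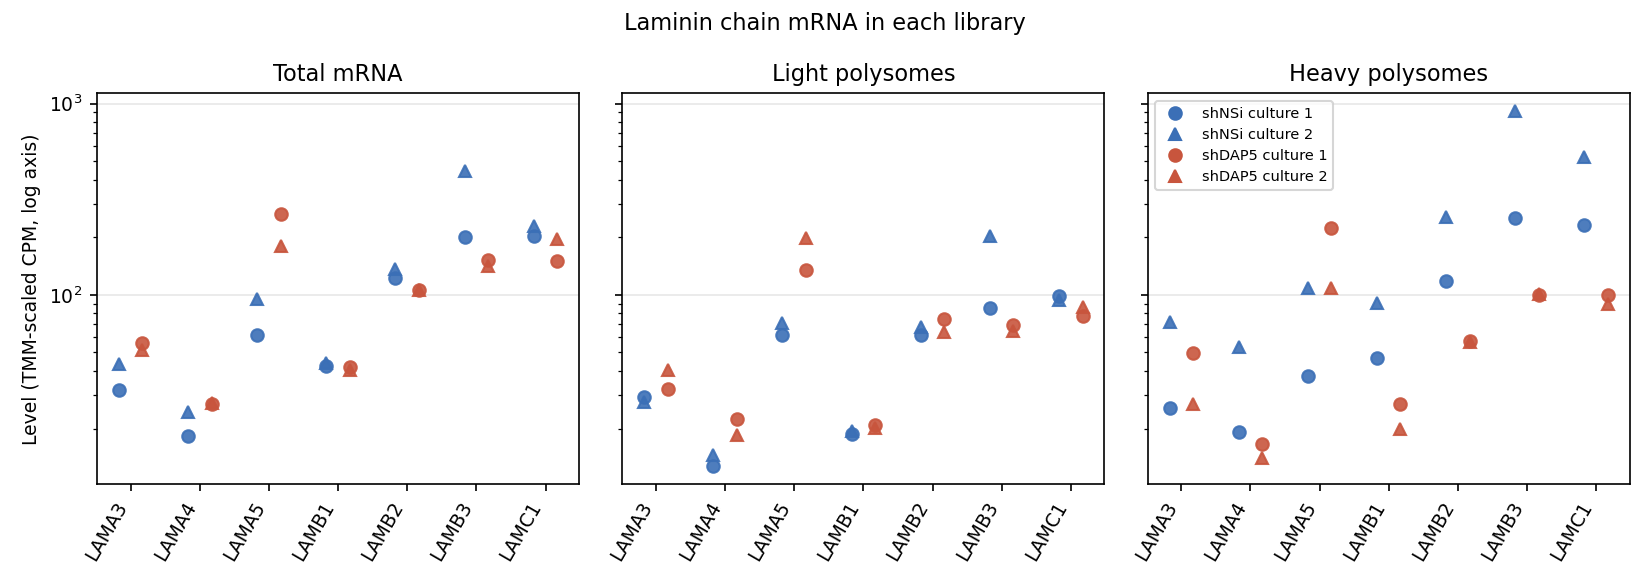
Level of each laminin chain (TMM-scaled CPM, log axis) in each of the 12 total, light and heavy libraries, with circles for replicate 1 and triangles for replicate 2. LAMA5 was higher in both shDAP5 cultures in the total and light panels and reached 108.7 against 108.3 CPM in the heavy panel, where the groups nearly met, and in the heavy panel the shNSi replicate 2 points lie above those of replicate 1 for all 7 chains.

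In total mRNA, LAMA5 was the 1 chain that passed the test after DAP5 silencing. LAMA5 measured 61.8 and 94.6 CPM in shNSi and 263 and 179.8 CPM in shDAP5, so both silenced cultures lay above both controls. It rose 2.83-fold (log2 change 1.50, SE 0.24, adjusted p = 0.0278, edgeR quasi-likelihood test). The other 6 chains were not called, with 0.0867% of all 14992 genes tested called higher and 0.267% called lower. The call was lost without shDAP5 replicate 1 (log2 change 1.20, adjusted p = 0.498) and with limma on quantile-normalized values (log2 change 1.56, adjusted p = 0.120).

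LAMB3 total mRNA measured 201 and 444 CPM in shNSi and 152 and 141 CPM in shDAP5. The groups did not overlap, but the control cultures differed from each other by more than shNSi replicate 1 differed from shDAP5, and the log2 change of -1.14 (SE 0.35) did not pass the test (adjusted p = 0.265). Without shNSi replicate 2 the value was -0.46 (adjusted p = 0.443), and without shNSi replicate 1 it was -1.64 (adjusted p = 0.000203). LAMA3 gave 0.51 (SE 0.21, adjusted p = 0.327) and LAMA4 0.35 (SE 0.22, adjusted p = 0.592). LAMB1, LAMB2 and LAMC1 gave -0.07, -0.29 and -0.32, none of them called. For 2 cultures against 2 the smallest two-sided p of an exact permutation test is 0.333, so the calls rest on the fit across all genes. How many of all genes part the lines without overlap was not counted, here or in the polysome measures. Where groups are said not to overlap, this describes the cultures only.

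In heavy polysomes most chains were lower after silencing, and 5 of the 7 fell: LAMB3, LAMC1, LAMB2, LAMB1 and LAMA4, by 5.81-, 4.01-, 3.28-, 2.93- and 2.38-fold. LAMA5 rose 2.29-fold, and LAMA3 did not pass the test. Of 14270 genes tested, 16.7% were called lower and 14.2% higher in this comparison.

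LAMB3 in heavy polysomes measured 253 and 911 CPM in shNSi and 99.7 and 101 CPM in shDAP5. Its log2 change was -2.54 (SE 0.40, adjusted p = 1.77e-06, edgeR quasi-likelihood test), with 0.470% of all genes lower. LAMC1 measured 232 and 527 CPM in shNSi and 100.1 and 89.2 CPM in shDAP5, a log2 change of -2.00 (SE 0.37, adjusted p = 8.16e-06). For both chains the silenced cultures lay close together and the controls far apart.

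LAMB2 measured 118 and 256 CPM in shNSi heavy polysomes and 57.1 and 56.8 CPM in shDAP5 (log2 change -1.71, SE 0.35, adjusted p = 4.63e-05). LAMB1 measured 46.8 and 90.1 CPM against 26.7 and 19.9 CPM (log2 change -1.55, SE 0.34, adjusted p = 0.000150). LAMA4 measured 19.2 and 53.6 CPM against 16.6 and 13.98 CPM (log2 change -1.25, SE 0.35, adjusted p = 0.00342). The groups of these beta and alpha chains did not overlap, though shNSi replicate 1 of LAMA4 was close to the silenced cultures. Without shNSi replicate 2 the LAMA4 change was -0.34 (adjusted p = 0.606) and that of LAMB1 -1.02 (adjusted p = 0.0569), neither called, and LAMB2 stood at -1.06 (adjusted p = 0.0396). The LAMA4 call was also lost with library size in place of TMM (-0.98, adjusted p = 0.0983).

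The 2 chains with the longest annotated coding sequence were not called lower in heavy polysomes. LAMA5 measured 37.4 and 108.3 CPM in shNSi and 225 and 108.7 CPM in shDAP5, so the higher control and the lower silenced culture nearly met (log2 change 1.19, SE 0.38, adjusted p = 0.0161). LAMA3 measured 25.6 and 72.3 CPM against 49.8 and 27.0 CPM, and the groups overlapped (log2 change -0.35, SE 0.36, adjusted p = 0.475). The LAMA5 call was lost without shNSi replicate 1 (0.51, adjusted p = 0.369), without shDAP5 replicate 1 (0.49, adjusted p = 0.459) or without shDAP5 replicate 2 (1.61, adjusted p = 0.129), and with DESeq2 (1.09, adjusted p = 0.0694). Without shDAP5 replicate 2 none of the 7 chains was called, where 2 of all 14891 genes were, with LAMB3 at -2.56 (adjusted p = 0.103) and LAMC1 at -1.94 (adjusted p = 0.103). With shNSi replicate 2 left out 4 of 7 were called, LAMB3 (-1.35), LAMC1 (-1.31) and LAMB2 lower and LAMA5 higher (2.14), against 2106 of 14957 genes called in either direction. With shNSi replicate 1 left out 6 were called, all lower, with LAMA3 (-1.03, adjusted p = 0.0346) among them and LAMA5 not, against 2499 of 14995 genes called lower.

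**Figure D2:**
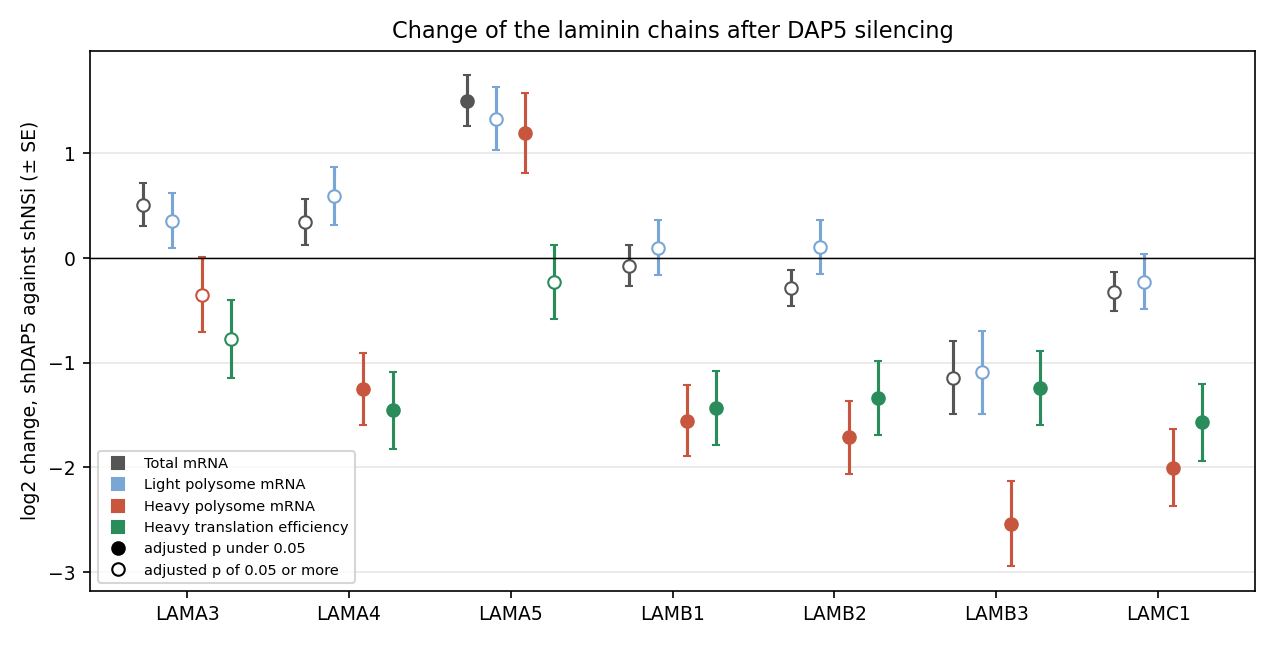
Log2 change of each chain in shDAP5 against shNSi (± SE of the fit) in total mRNA, light polysome mRNA, heavy polysome mRNA and heavy translation efficiency, with filled circles where the adjusted p was under 0.05. LAMA5 stands above 0 in the 3 mRNA measures, and 5 chains have filled circles below 0 in heavy polysomes and in heavy translation efficiency.

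In light polysomes no chain was called. LAMA5 measured 61.6 and 71.0 CPM in shNSi and 136 and 198 CPM in shDAP5 (log2 change 1.33, SE 0.30, adjusted p = 0.430, edgeR quasi-likelihood test). LAMB3 measured 84.9 and 202 CPM against 69.8 and 64.9 CPM (log2 change -1.09, SE 0.39, adjusted p = 0.536). These 2 chains were also the only members with an unadjusted p under 0.05. The other 5 lay between -0.23 for LAMC1 and 0.59 for LAMA4. Of 15529 genes 0% were called, 1330 had an unadjusted p under 0.05, DESeq2 called 105 genes and 1 chain, and limma called 0 genes.

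Translation efficiency, the polysome over total mRNA ratio, was compared next, since it sets a change in polysome loading apart from a change in mRNA level. Heavy translation efficiency fell for 5 of 7 chains: LAMC1, LAMA4, LAMB1, LAMB2 and LAMB3. The log2 changes of these 5 lay between -1.57 and -1.24. LAMA3 and LAMA5 did not pass the test. Of 15374 genes 8.23% were called lower, and the chains' median log2 change was -1.34 against 0.09 for all genes tested.

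Each culture gave its own ratio. LAMC1 had log2 heavy over total ratios of 0.38 and 1.47 in the shNSi cultures and -0.38 and -0.91 in the shDAP5 cultures. The change was -1.57 (SE 0.37, adjusted p = 0.00824, edgeR quasi-likelihood test). LAMA4 had ratios of 0.25 and 1.40 against -0.48 and -0.74, a change of -1.45 (SE 0.37, adjusted p = 0.0109). Both controls lay above both silenced cultures for these chains, though the share of all genes that part in this way was not counted. The place of 0 depends on the scaling, here TMM over the 8 libraries.

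LAMB1 had ratios of 0.32 and 1.30 in shNSi against -0.44 and -0.80 in shDAP5 (change -1.44, SE 0.35, adjusted p = 0.00973). LAMB2 had 0.13 and 1.18 against -0.68 and -0.69 (change -1.34, SE 0.35, adjusted p = 0.0130). LAMB3 had 0.51 and 1.31 against -0.40 and -0.26 (change -1.24, SE 0.36, adjusted p = 0.0194). For LAMB3 this stands beside -2.54 in heavy polysome mRNA and the uncalled -1.14 in total mRNA.

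LAMA5 had ratios of -0.54 and 0.47 in shNSi and -0.02 and -0.51 in shDAP5, which overlap. Its heavy translation efficiency changed by -0.23 (SE 0.35, adjusted p = 0.702) and ran from -0.74 to 0.25 with each replicate left out. LAMA3 had ratios of -0.13 and 1.01 against 0.05 and -0.71 (change -0.77, SE 0.37, adjusted p = 0.157). None of the 5 calls held without shNSi replicate 2, where the changes ran from -1.05 for LAMC1 (adjusted p = 0.584) to -0.84 for LAMB2 (adjusted p = 0.623), or without shDAP5 replicate 2 (LAMC1 -1.31, adjusted p = 0.100). Those fits called 4 of 15976 and 43 of 15914 genes. None held with library size in place of TMM (LAMC1 -1.36, adjusted p = 0.0724) or with limma (LAMC1 -1.38, adjusted p = 0.0528), where the direction of the 5 stayed and 0 and 408 of 15374 genes were called.

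Light translation efficiency gave no call among the chains. The 7 log2 changes lay between -0.17 for LAMA5 and 0.41 for LAMB2, with adjusted p-values from 0.879 to 0.964. Of 15967 genes 0% were called by edgeR, 833 had an unadjusted p under 0.05, and DESeq2 and limma also called 0. With each replicate left out LAMA5 ran from -0.72 to 0.35, so its direction was not settled.

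The heavy over light polysome ratio, which leaves total mRNA out, fell for 4 chains. LAMB2 gave a log2 change of -1.80 (SE 0.44, adjusted p = 0.0245), LAMA4 -1.76 (SE 0.45, adjusted p = 0.0266), LAMC1 -1.75 (SE 0.49, adjusted p = 0.0384) and LAMB1 -1.69 (SE 0.42, adjusted p = 0.0261), against 5.21% of 15878 genes called lower. LAMB3 gave -1.39 (adjusted p = 0.0700), LAMA3 -0.68 (adjusted p = 0.451) and LAMA5 -0.11 (adjusted p = 0.928). This ratio shares its heavy libraries with heavy translation efficiency, so the values stand side by side and are not separate evidence. Without shNSi replicate 2 the 4 changes ran from -1.27 for LAMB2 to -1.08 for LAMA4. No chain was called without it or without shDAP5 replicate 2, where 747 of 16578 and 2 of 16584 genes were, and 1 was called without shDAP5 replicate 1, where 789 of 16455 were.

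Within the control line, LAMC1, LAMB3, LAMA4 and LAMB1 passed the test as higher in heavy polysomes than in moderate polysomes, light polysomes and total mRNA, and LAMA5 passed against the moderate pool alone. All 7 chains were higher in heavy than in moderate polysomes, by log2 values from 0.88 for LAMA5 to 2.10 for LAMB2, against 23.1% of 15514 genes called higher. All but LAMA5 were higher in heavy than in light polysomes, from 1.04 for LAMA3 to 2.31 for LAMC1 (SE 0.35, adjusted p = 6.70e-05, edgeR quasi-likelihood test), against 33.8% of genes. Higher in heavy polysomes than in total mRNA were 4 chains: LAMC1 (1.07), LAMB3 (1.00), LAMA4 (0.97) and LAMB1 (0.92), against 21.8% of genes. LAMB2 gave 0.77 (adjusted p = 0.0576), LAMA3 0.60 (adjusted p = 0.151) and LAMA5 0.10 (adjusted p = 0.824). With library size in place of TMM 0 chains were called over total mRNA. The 21.8% belongs to the main fit, and the share of all genes under that scaling is not given here. No chain was called between moderate and light polysomes, with log2 values from -0.53 for LAMA5 to 0.31 for LAMB1 and 0 of 7 past the test, where 27.1% of genes were called in either direction, 6355 had an unadjusted p under 0.05 and DESeq2 called 0 chains.

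Each culture can also be followed along the pools, here with TMM scaling over the libraries of 1 line, which moves the ratios slightly from those above. For LAMC1 the log2 ratio to total mRNA was -1.10 and -1.42 in light, -1.01 and -0.88 in moderate and 0.47 and 1.55 in heavy polysomes of shNSi. For LAMB3 it was -1.36 and -0.65 in the moderate pool. In shNSi replicate 1 alone, heavy over light log2 values were 0.13 for LAMA3 and -0.39 for LAMA5 and from 0.92 for LAMA4 to 1.90 for LAMB3 in the others. Heavy over moderate values there ran from 0.51 for LAMA3 to 1.97 for LAMB3. Heavy over total values there ran from -0.45 for LAMA5 to 0.61 for LAMB3, each under that of shNSi replicate 2. With no term for the culture, 0 of 7 chains were called in heavy polysomes over total mRNA and 4 of 7 in heavy over moderate polysomes. The numbers of all genes called without that term are not given here, so these counts describe the chains only.

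In the silenced line no chain was called between the heavy pool and total mRNA. Heavy over total log2 ratios of the 7 chains ran from -0.70 for LAMB2 to -0.25 for LAMA5, all below 0, with LAMA3 at 0.019 in replicate 1 and -0.73 in replicate 2, where 1.08% of 15619 genes were called in either direction. DESeq2 also called 0 chains, 2501 genes had an unadjusted p under 0.05, and 4 of these were chains. In heavy over light polysomes LAMB3 was called higher (log2 0.84, SE 0.18, adjusted p = 0.00316, edgeR quasi-likelihood test), against 25.9% of genes, and the other 6 ran from -0.15 for LAMA4 to 0.48 for LAMC1. The test of the difference between the lines is the change in heavy translation efficiency and in the heavy over light ratio above.

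**Figure D3:**
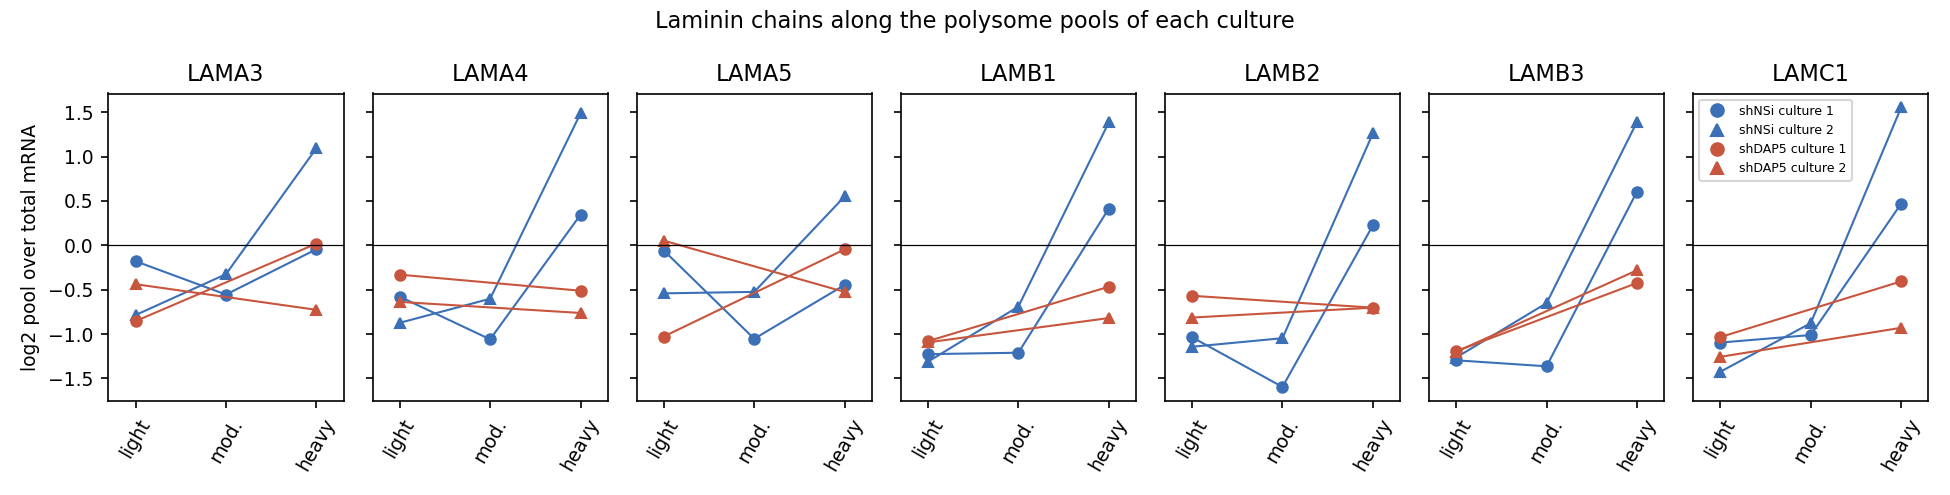
Log2 ratio of each pool to the total mRNA of the same culture for the 7 chains, with blue for shNSi (light, moderate, heavy) and red for shDAP5 (light, heavy), circles for replicate 1 and triangles for replicate 2. In heavy polysomes the shNSi points of LAMA4, LAMB1, LAMB2, LAMB3 and LAMC1 lie above both shDAP5 points, and shNSi replicate 2 is the highest point of every panel. The share of all genes that part the lines in this way was not counted.

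Coding length moved with heavy translation efficiency across all genes. Over 12485 genes with a coding length, Spearman's rho between that length and the log2 change in heavy translation efficiency was -0.71. For heavy polysome mRNA it was -0.65 over 12139 genes. All points of a comparison share its libraries, 8 and 4 in these, and genes are not replicates, so no test is given. At 3516 to 11085 nucleotides, the chains were longer than 89.5% (LAMB3) to 99.5% (LAMA5) of genes. A lowess trend on length gave -0.75 at the length of LAMB3 and -1.03 at that of LAMA5.

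Set against this trend the chains parted. LAMC1 lay 0.70 below it, LAMA4 0.55 below, LAMB1 0.53 below, LAMB3 0.50 below and LAMB2 0.44 below, while LAMA3 lay 0.24 above and LAMA5 0.80 above. Of the 113 genes with at least 9000 coding nucleotides the median change was -0.98, 30 were called lower and 14 had a higher value than LAMA5. With offsets for coding length in the fit, 0 of 7 chains were called in heavy translation efficiency (LAMC1 -0.73, adjusted p = 0.103, LAMA5 0.81, adjusted p = 0.0749) and 0 in total mRNA. In heavy polysomes 3 were called with the offsets, LAMB3 (-1.70, adjusted p = 0.0348), LAMC1 (-1.05, adjusted p = 0.0343) and LAMA5 (2.37, adjusted p = 0.00122). Of all genes, the offsets left 481 of 15374 called in heavy translation efficiency, 12 of 14992 in total mRNA and 1778 of 14270 in heavy polysomes. The part of length in the result beyond these values was not tested.

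**Figure D4:**
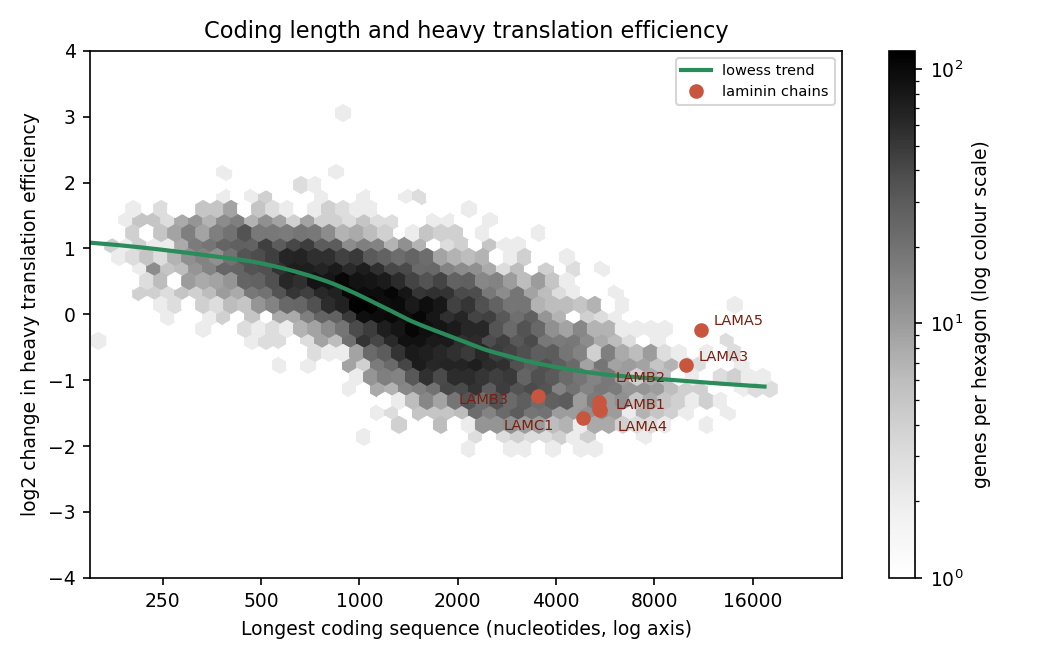
Longest coding sequence (nucleotides, log axis) against the log2 change in heavy translation efficiency, with grey hexagons for 12485 genes, the green line for the lowess trend and red points for the 7 chains. LAMA5 and LAMA3 lie above the trend at its right end, and the other 5 chains lie below it.

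The choice of control pool also set the values. With the shNSi moderate pool in place of heavy, heavy translation efficiency was above 0 for all 7 chains, from 0.085 for LAMA3 to 0.65 for LAMB3, with 0 called of these and 0 of all 15434 genes. All 7 stood higher in the shNSi heavy than in the moderate pool, by log2 0.88 to 2.10, so this swap raises the values by itself. The heavy libraries of both lines carry the same description code, so the moderate pool is not a matched control for them. With heavy and moderate pools summed as the control, 0 chains were called in heavy translation efficiency and 3 in heavy polysome mRNA, LAMB3 (-1.83), LAMC1 (-1.27) and LAMA5 (1.56). Those fits called 0 of 15386 and 421 of 15184 genes. With all polysome libraries of a culture summed, 0 chains were called in either, where 7 of 16573 and 8 of 17051 genes were.

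The receptors that bind laminin were read beside the chains. Across all genes, changes in heavy polysome mRNA and heavy translation efficiency fell with coding length (Spearman's rho -0.65 and -0.71). The part of length in the counts of receptors and of the partners below was not tested. Of 12 receptor genes, 6 were lower in heavy polysomes and 0 higher, against 16.7% and 14.2% of all genes. ITGB1, the beta subunit of most laminin-binding integrins, fell by 2.52 (SE 0.39, adjusted p = 1.59e-07, edgeR quasi-likelihood test) and ITGA6, an alpha subunit specific for laminin, by 2.27 (SE 0.37, adjusted p = 4.11e-07). ITGA3 (-1.92), ITGA7 (-1.69), DAG1, the dystroglycan gene (-1.44), and ITGB4, the hemidesmosome subunit (-1.04), were the others. ITGA7 passed barely (SE 0.69, adjusted p = 0.0498) and did not pass the filter on low counts in light polysomes. In heavy translation efficiency 6 of 12 were lower, DAG1, ITGA2, ITGA3, ITGA6, ITGB1 and ITGB4, from -1.87 for ITGA2 to -1.10 for DAG1, against 8.23% of all genes. None was called in total mRNA, where ITGB1 gave -0.71 (adjusted p = 0.148). BCAM, the syndecans SDC1, SDC2 and SDC4, and RPSA, a ribosomal protein also described as a laminin receptor, were not called in any of these 3 measures.

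Most tested partners of laminin in the basement membrane were lower in heavy polysomes, again with no adjustment for coding length. In all, 10 of 12 partner genes passed the filter, and 8 of these were lower in heavy polysomes and 0 higher, against the same 16.7% and 14.2%. COL4A1 and COL4A2, the main chains of the collagen IV network, gave -3.46 (SE 0.36, adjusted p = 2.97e-15) and -3.12 (SE 0.40, adjusted p = 4.83e-09). PXDN, the peroxidase that crosslinks collagen IV, gave -2.34, COL18A1 -1.54, AGRN -1.44, HSPG2, the perlecan gene -1.32, SPARC -1.14 and COL4A5 -1.09. In heavy translation efficiency COL4A1 (-2.05), COL4A2 (-1.78), PXDN (-1.77), COL18A1 (-1.44) and AGRN (-1.20) were called lower, 5 of 10 against 8.23% of all genes, and none was called in total mRNA, with COL4A1 at -1.26 (adjusted p = 0.0555). Without shDAP5 replicate 2, 0 receptors and 0 partners were called in heavy polysomes (2 of 14891 genes) and 0 and 2 in heavy translation efficiency (43 of 15914 genes). Without shNSi replicate 2, 3 receptors and 5 partners were called lower in heavy polysomes, where 1260 of 14957 genes were, ITGB1 (-2.18), ITGA6 (-2.02) and ITGA3 (-1.33), and COL4A1 (-2.84), COL4A2 (-2.10), PXDN (-1.96), HSPG2 (-1.31) and SPARC (-1.13). The calls of ITGA7 (-1.67), DAG1 (-0.94), AGRN (-0.83), ITGB4 (-0.76), COL4A5 (-0.56) and COL18A1 (-0.42) were lost. In heavy translation efficiency 0 of either list were called without it, where 4 of 15976 genes were, with COL4A1 at -1.50 and ITGB1 at -1.41 (adjusted p = 0.584 for both).

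Across the 14 libraries the chains fell into patterns by their log2 CPM. LAMB1 and LAMC1, the beta and gamma chain of the commonest laminins, were the closest pair (Pearson r 0.97), and LAMB1 and LAMB2 reached 0.96. LAMA5 was far from the beta and gamma chains, with r of -0.04 to LAMB3, 0.04 to LAMC1, 0.20 to LAMB1 and 0.21 to LAMB2, and nearer to LAMA3 at 0.71. Among 9389 genes the pattern most like LAMB3 was that of PLOD1, TGFBI and PLOD3 (r 0.99, 0.99 and 0.98), and those most like LAMC1 were NUP210, NPC1 and ERAP1 (r 0.99). LAMB1 was closest to EPRS, EIF5B and NUMA1, LAMB2 to GTF3C1, SNRNP200 and IFT172, LAMA4 to ABCA2, KDM4A and ERCC6L, and LAMA3 to BAHCC1, ABCA2 and ZMIZ1. LAMA5 was closest to SREBF1, IQSEC2 and PITPNM2 (r 0.88, 0.87 and 0.87), the loosest likeness of the 7. The libraries share 4 cultures and differ by pool, so these values describe likeness only.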

How the data were processed

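Polysomes were separated on sucrose gradients and pooled, and RNA was sequenced as single reads. The authors deposited raw read counts per gene symbol, without normalization. Per the labels, reads were aligned with STAR 2.6.0a to hg19. The name of the deposited table gives featureCounts as the counter and holds the tag rev, which is not explained in the sources used here, so the use of strand was not settled. Gene models came from GENCODE v29 and promoters from RefSeq, both on GRCh38, so no coordinate is of the authors' build. Of the symbols, 37621 matched GENCODE.

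Counts were analysed in R 4.3.3 with edgeR 4.0.16 (filterByExpr, TMM, quasi-likelihood test with robust estimation) and Benjamini-Hochberg adjustment over all genes tested, threshold 0.05. Each fraction had its own fit. Ratios were tested as the interaction of fraction and shRNA over 8 libraries with a term for each culture, which the study's matched design and the shared run codes of the libraries give. The SE is the log2 change over the square root of F. Alternatives used DESeq2 1.42.0, limma 3.58.1 on log2(CPM + 1), other scalings and filters, length offsets, other control pools, a replicate block and each replicate left out. Added after the data were seen was the block with crossed numbers.

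Members and lists were chosen with earlier results of these data known. The 7 chains, the targeted gene, the listed receptors and partners past the threshold, and the 3 genes of highest Pearson r to each chain (mean of at least 10 CPM) are named. Laminin chain genes outside the 7 are not reported here. The study describes 2 independent sets of experiments, and p-values measure the spread between 2 cultures of each line. The scripts were tested on simulated data.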

Additional observations from a re-analysis of the deposited data

Results flagged for a closer look

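The interaction tests found that the heavy over total ratio of 5 chains differed between the lines, by log2 values of -1.45 for LAMA4, -1.44 for LAMB1, -1.34 for LAMB2, -1.24 for LAMB3 and -1.57 for LAMC1. The heavy over light ratio also differed for LAMA4 (-1.76), LAMB1 (-1.69), LAMB2 (-1.80) and LAMC1 (-1.75). Both sets use the same heavy libraries, and the calls of both were lost without shNSi replicate 2 and without shDAP5 replicate 2. No group held 4 samples, so single cultures far from their group were not tested.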

How the results depend on the processing

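With 2 cultures in each line, 1 library could end a call. The counts below are of chains, and the number of all genes called is given above for some of these fits only. Where it is not given, a change in the chains cannot be told from a change over all genes. Called in total mRNA was 1 chain in the main fit, 2 (LAMA5 and LAMB3) with DESeq2, 2 with no filter on low counts, 2 with the replicate block, 0 with limma, 0 with length offsets and 0 to 2 with each replicate left out. In heavy polysome mRNA 6 chains were called, 3 with length offsets, 1 with the shNSi moderate pool as control, 3 with heavy and moderate pools summed, 0 with all polysome libraries summed and 0 to 6 with each replicate left out. In light polysome mRNA 0 were called, 1 with DESeq2, 1 with no filter, 1 with the replicate block, 1 with the moderate pool as control and 0 to 2 with each replicate left out. In heavy translation efficiency 5 were called, 0 with library size without TMM, 0 with limma, 0 with length offsets, 0 with the moderate pool, 0 with heavy and moderate summed, 0 with all polysomes summed and 0 to 6 with each replicate left out. In the heavy over light ratio 4 were called, 0 with limma, 0 with length offsets, 0 with heavy and moderate summed and 0 to 6 with each replicate left out. In shNSi heavy over total 4 were called, 0 with library size without TMM and 0 with no replicate block. In shNSi heavy over moderate 7 were called, and 4 with no replicate block. In shDAP5 heavy over light 1 was called, and 2 with no filter. Light translation efficiency kept 0 calls under every alternative tried. Swapping in the moderate pool raises the heavy measures by itself, as given above, and the cause of the other shifts was not tested.

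In comparisons with a called chain under some setting, log2 changes that turned sign were as follows. With length offsets heavy polysome mRNA was 0.81 for LAMA3, light polysome mRNA -0.043 for LAMB1 and -0.039 for LAMB2, heavy translation efficiency 0.24 for LAMA3 and 0.81 for LAMA5, and the heavy over light ratio 0.56 for LAMA3 and 1.14 for LAMA5. With the moderate pool as control heavy polysome mRNA was 0.64 for LAMA3, 0.49 for LAMA4, 0.22 for LAMB1 and 0.28 for LAMB2, and light polysome mRNA was -0.28 for LAMB1. Heavy translation efficiency was then 0.085 for LAMA3, 0.19 for LAMA4, 0.50 for LAMA5, 0.31 for LAMB1, 0.62 for LAMB2, 0.65 for LAMB3 and 0.27 for LAMC1. The moderate pool held less of every chain than the heavy pool in shNSi, so this swap moves the heavy values up by itself. With heavy and moderate pools summed LAMA3 was 0.092 in heavy polysome mRNA, and LAMA5 0.23 in heavy translation efficiency and 0.34 in the heavy over light ratio. With light and moderate summed LAMB1 was -0.11 in light polysome mRNA. With all polysomes summed LAMA3 was 0.13 in heavy polysome mRNA and LAMA5 0.048 in heavy translation efficiency. With library size without TMM LAMA5 was 0.13 in the heavy over light ratio, -0.33 and -0.13 in shNSi heavy over total and over light, and -0.017 in shDAP5 heavy over light. With limma LAMA5 was 0.036 in the heavy over light ratio. With at least 10 counts in every library it was -0.022 in shNSi heavy over total. LAMB2 in shDAP5 heavy over light was 0.012 with DESeq2 and 0.036 with no filter.

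Leaving out each replicate in turn, LAMA3 ran from -1.03 to 0.57 in heavy polysome mRNA, -1.49 to 0.16 in the heavy over light ratio, -0.044 to 1.09 in shNSi heavy over total and -0.29 to 0.87 in shDAP5 heavy over light. LAMA5 ran from -0.74 to 0.25 in heavy translation efficiency, -0.96 to 0.71 in the heavy over light ratio, -0.45 to 0.55 in shNSi heavy over total, -0.39 to 1.09 in shNSi heavy over light and -0.58 to 0.98 in shDAP5 heavy over light. In shDAP5 heavy over total LAMA3 ran from -0.73 to 0.019. In light translation efficiency LAMA3 ran from -0.46 to 0.14, LAMA5 from -0.72 to 0.35 and LAMC1 from -0.045 to 0.28. In shNSi moderate over light LAMA3 ran from -0.38 to 0.46, LAMA4 from -0.48 to 0.27, LAMA5 from -0.99 to 0.017, LAMB2 from -0.56 to 0.097 and LAMB3 from -0.067 to 0.61. Other alternatives turned 2 of 10 light translation efficiency values of LAMA5, 2 of LAMB1, 3 of LAMB3 and 3 of LAMC1, and 3 of 5 moderate over light values of LAMA3. LAMB2 ran from -0.012 to 0.20 in light polysome mRNA and -0.13 to 0.11 in shDAP5 heavy over light. Within 1 line, leaving out a culture left no replicate, so those are values with no test.

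Replicate numbers did not pair the lines: deviations of same-numbered cultures correlated at -0.10 to 0.05 in the mRNA fits and -0.20 in heavy translation efficiency. With the replicate block 4 chains were called in heavy translation efficiency, 6 in heavy polysome mRNA and 4 in the heavy over light ratio. With the numbers crossed, chosen after the data were seen, these counts were 6, 6 and 5. The numbers of all genes called in the fits with a block are not given here, so these counts describe the chains only.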
